A study of Mus musculus with 27 samples.

Results

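The tubulin isotypes described here are 10 genes, taken by symbol through the Ensembl identifiers of the 2 expression tables: the alpha-tubulins Tuba1a, Tuba1b, Tuba1c and Tuba3a and the beta-tubulins Tubb2a, Tubb2b, Tubb3, Tubb4b, Tubb5 and Tubb6. They are 10 of 37332 genes in the count table and of 53379 in the TPM table, and all 10 passed the filter on low counts (18226 genes tested), Tuba3a through its mESC libraries alone. Alpha- and beta-tubulin pair into the heterodimer from which microtubules are built, the tracks and struts of the mitotic spindle, the axon and the dendrite. The isotypes are separate genes for very similar proteins that differ most in the acidic tail at the carboxyl end, where most of the modifying enzymes act. Neurons are known for making Tubb3, often used as a neuronal marker, with Tuba1a, Tubb2a and Tubb2b, while Tuba1b, Tubb5, Tubb4b and Tubb6 are the isotypes usually met in dividing cells and Tuba3a is known from testis. Tubulin mRNA is also regulated by the supply of tubulin itself: on ribosomes, the factor Ttc5 recognises the first residues of newly made tubulin and brings in Scaper and the CCR4-NOT deadenylase when free dimer is in excess.

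Polyadenylated RNA longer than 200 nt was sequenced from 3 cell types of the neuronal lineage, each split into chromatin-associated, nucleoplasmic and cytoplasmic RNA with 3 biological replicates (9 groups, 27 libraries). The labels do not say whether replicates were separate cultures or animals, so p-values measure the spread between these libraries. The cell types were the E14 mouse embryonic stem cell line, kept with LIF (mESC), a neuronal progenitor line made in the submitters' laboratory, labelled C2 and given EGF and FGF at 10 ng/ml daily (mNPC), and primary cortical neurons, labelled E15D5 and grown for 5 days (mCtx). No group carries an engineered allele or a drug treatment in the labels, and mESC and mNPC are 1 line each, so that a cell type and its line cannot be told apart. The comparisons ask how each isotype's level differs between the fractions of a cell and between the cell types. Rises, falls and steps below are differences between these cell types, not changes followed in 1 culture. Levels of 1 gene are given as CPM (counts scaled to library size, on library totals scaled by TMM), in the order of replicates 1, 2 and 3, and different genes are compared only by the deposited TPM, which is per length. A gene was called when edgeR's quasi-likelihood test, over all genes and libraries at once, gave a Benjamini-Hochberg adjusted p under 0.05 and a log2 fold change of at least 1 in size. Every adjusted p below is from that test unless limma is named. For summed isotypes, or with a library left out, the same test was refitted on the changed counts.

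The isotypes are compact genes of 4 exons, or 5 in Tuba3a, with coding sequences of 1335 to 1356 bases in GENCODE M21 (GRCm38). Tuba1a (ENSMUSG00000072235, chr15:98949841-98953551, minus strand), Tuba1b (ENSMUSG00000023004, chr15:98931425-98934565, minus strand) and Tuba1c (ENSMUSG00000043091, chr15:99029891-99038105, plus strand) stand side by side on chromosome 15. Tubb2a (ENSMUSG00000058672, chr13:34074301-34078008) and Tubb2b (ENSMUSG00000045136, chr13:34127008-34130354), both on the minus strand, are neighbours on chromosome 13. The others are apart: Tuba3a (ENSMUSG00000067702) at chr6:125278274-125286042, Tubb3 (ENSMUSG00000062380) at chr8:123411424-123422015, Tubb4b (ENSMUSG00000036752) at chr2:25222160-25224702 and Tubb5 (ENSMUSG00000001525) at chr17:35833926-35838306. Tubb3 lies inside the span of Gm20388 on the same strand, and Tubb4b overlaps Fam166a on the opposite strand, and how reads in such stretches were counted is not stated in the labels or headers.

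The sequences show which isotypes a read can tell apart and where they differ. Tuba1a and Tuba1b share 98.3% of their aligned coding bases, Tuba1a and Tuba1c 97.1%, Tuba1b and Tuba1c 97.9%, and Tubb2a and Tubb2b 96.5%, while the other pairs within each family share 80.2% to 85.9%. The last 60 coding bases of 5 beta isotypes, which encode the acidic tail and the stop codon, are printed 5′ to 3′ to show where these genes part, with capitals at the bases that do not match Tubb5 in a pairwise alignment of the coding sequences.
Tubb5: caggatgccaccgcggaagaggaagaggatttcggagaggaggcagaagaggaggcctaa
Tubb2a: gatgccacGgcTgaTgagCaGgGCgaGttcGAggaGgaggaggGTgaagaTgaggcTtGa
Tubb2b: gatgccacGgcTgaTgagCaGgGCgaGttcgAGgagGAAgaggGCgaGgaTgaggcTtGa
Tubb4b: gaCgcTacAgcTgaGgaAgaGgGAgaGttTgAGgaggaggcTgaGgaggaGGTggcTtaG
Tubb3: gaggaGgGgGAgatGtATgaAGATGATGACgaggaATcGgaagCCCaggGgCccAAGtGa
In this stretch Tubb2a has 16 bases in capitals, Tubb2b 19, Tubb4b 20 and Tubb3 29, the most of these 4. Bases with no partner in Tubb5 are counted among them, and the printed lines do not align column by column. The first 12 coding bases, the part read out by the autoregulation machinery as the first residues of the protein, are atgagggaaatc in Tubb5 and atgagggagatc in Tubb3 and Tubb4b.

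At the read length of 100 bases, sharing is heavy in some isotypes and absent in others. Of the 1704 windows of 100 bases in the Tuba1a transcript, 65.1% occur letter for letter in a transcript of another annotated gene, and the share is 69.5% for Tuba1b, 53.4% for Tuba1c, 36.9% for Tubb2a, 27.7% for Tubb2b, 29.2% for Tubb4b (almost all with its pseudogenes) and 12.3% for Tuba3a (with Tuba3b). Tubb3, Tubb5 and Tubb6 share 0 of 1769, 2550 and 1659 windows. Values for the Tuba1 trio and for the Tubb2 pair are therefore uncertain as a split between neighbours, and the summed counts of Tuba1a, Tuba1b and Tuba1c and of Tubb2a and Tubb2b were also tested. Part of the sharing is with genes outside these sums. Tuba1a also shares windows with Gm17383, Tuba1b with Gm49450, and Tubb2a and Tubb2b with Tubb2a-ps2. The sums do not settle how reads shared with those genes were assigned.

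Libraries held 10622897 to 24537526 counts. The cell type labels matched their markers: 6 pluripotency markers summed to 4851 to 5580 CPM in mESC cytoplasm and to at most 2.67 CPM in any mNPC or mCtx library, with Pou5f1, Zfp42 and Utf1 at 0 in each of those groups. The 8 cortical neuron markers, none of them a tubulin, summed to 3612 to 4488 CPM in mCtx cytoplasm, 670 to 812 in mNPC and 17.8 to 21.5 in mESC, and the 6 progenitor markers to 6559 to 6874 CPM in mNPC and 1131 to 1574 in mCtx. Among other cell types, 6 inhibitory neuron markers summed to 439 to 471 CPM in mCtx cytoplasm. The 6 astrocyte markers summed to 161 to 218 CPM in mCtx cytoplasm and to 345 to 515 CPM in mNPC cytoplasm. In mNPC cytoplasm 6 oligodendrocyte-lineage markers summed to 782 to 1117 CPM, with Mog at 0. The part of these cells in the tubulin levels was not tested, and in bulk RNA fewer cells of a type and less RNA per cell cannot be told apart. Mitochondrial transcripts took 3.84% to 11.7% of counts in nucleoplasm, 0.0321% to 2.64% in cytoplasm and 0.356% to 1.54% in chromatin. Among the cytoplasms, and also among the chromatin libraries, their share was highest in mCtx. Their part in the fraction differences was not tested. In mESC, 7 of the isotypes (Tuba1a, Tuba1b, Tuba1c, Tubb3, Tubb4b, Tubb5 and Tubb6) had their lowest level in replicate 1 in all 3 fractions. Without these 3 libraries 1 call of an isotype was lost, that of Tuba1b in the chromatin-to-cytoplasm difference of mCtx minus mESC (0.94), and Tubb5 in chromatin of mNPC against mESC (-1.19), Tubb2b in mESC nucleoplasm against cytoplasm and Tuba1a in the nucleoplasm-to-cytoplasm difference of mNPC minus mESC (1.17) were called in addition.

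**Figure D1:**
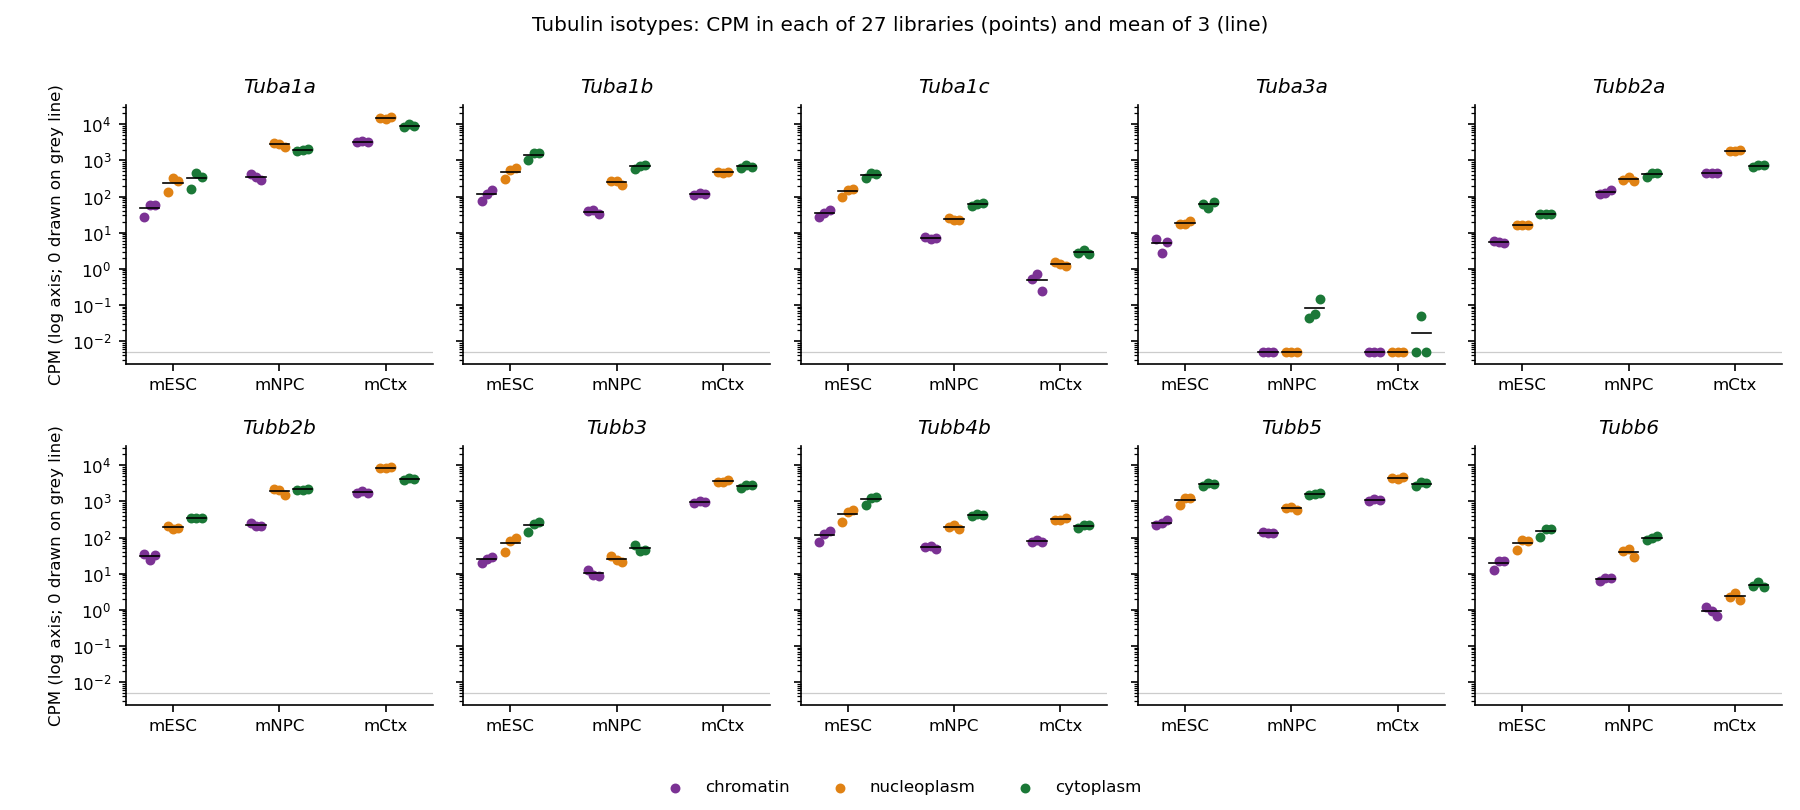
CPM of each tubulin isotype in each of 27 libraries (points, log axis) with the mean of 3 libraries (black line), by cell type and coloured by fraction; values of 0 are drawn on the grey line. Tuba1a climbs from 162 to 456 CPM in mESC cytoplasm to 8301 to 9870 in mCtx cytoplasm, while Tuba1c and Tubb6 go the other way.

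Among the alpha isotypes of the cytoplasm, Tuba1a rose from mESC to mNPC to mCtx and Tuba1c fell, while Tuba3a was near 0 outside mESC. Tuba1a, the alpha-tubulin of developing neurons, had 162, 456 and 356 CPM in mESC, 1815, 1963 and 2043 CPM in mNPC, and 8301, 9870 and 9093 CPM in mCtx. The 3 cell types did not overlap. The log2 fold change was 2.58 ± 0.31 (SE, here and below) in mNPC against mESC (adjusted p = 2.7e-08) and 2.23 ± 0.30 in mCtx against mNPC (adjusted p = 3.7e-07). Across the whole span, mCtx against mESC, it was 4.81 ± 0.34, a 28.0-fold difference (adjusted p = 7.2e-13).

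Tuba1b, the widely expressed neighbour of Tuba1a, had 1008, 1569 and 1568 CPM in mESC, 592, 712 and 742 in mNPC, and 631, 756 and 671 in mCtx. It fell by 1.02 on the log2 scale in mNPC (SE 0.22, adjusted p = 1.6e-04) and by 1.01 in mCtx (SE 0.22, adjusted p = 1.5e-04), both against mESC, and the mNPC and mCtx libraries overlapped (0.0091 ± 0.22). Both falls sat at the minimum fold: with the replicate number as a block they were -0.99 in each comparison, and with scaling by library totals -0.87 and -0.98, none of them called. They were also lost without mESC cytoplasm replicate 2 (-0.97 and -0.95) or 3 (-0.99 and -0.97), without mNPC cytoplasm replicate 1 (-0.93, mNPC) and without mCtx cytoplasm replicate 1 (-0.95) (mCtx) or 3 (mCtx, just short of the minimum). Tuba1c, the last of the trio, had 324, 438 and 416 CPM in mESC, 54.1, 61.5 and 68.0 in mNPC and 2.80, 3.22 and 2.60 in mCtx. Each cell type lay below the one before it without overlap, by a log2 fold change of -2.68 ± 0.19 and then -4.41 ± 0.22, and mCtx was 136-fold below mESC (-7.09 ± 0.24, adjusted p = 2.2e-19). Summed over the trio, alpha-tubulin counts in cytoplasm did not pass in mNPC against mESC (0.35 ± 0.23, adjusted p = 0.158) and rose in mCtx against mNPC (1.87 ± 0.23, adjusted p = 8.2e-08), so between mESC and mNPC the single genes moved in both directions around a sum that was not called.

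Tuba3a was an mESC transcript in these data. It had 62.5, 49.6 and 69.5 CPM in the mESC cytoplasms, from 2921 counts in all. In the mNPC cytoplasms 4 counts were found in all, a level 826-fold lower (exact 95% interval of the ratio 322 to 3033, counting error only), and in the mCtx cytoplasms 1 count, 3402-fold lower (610 to 134430). In chromatin, 330 counts in mESC stood against 0 in mNPC and 0 in mCtx, which makes the level at least 91.5-fold and at least 97.8-fold lower, taking 3 counts over the group as the floor. The nucleoplasms of mNPC and mCtx also held 0 counts.

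Of the beta isotypes, Tubb2a and Tubb2b rose between mESC and mNPC, Tubb3 rose only between mNPC and mCtx, and Tubb4b and Tubb6 fell. Tubb2a had 33.0, 33.1 and 33.9 CPM in mESC cytoplasm, 348, 450 and 439 in mNPC and 656, 737 and 732 in mCtx. Its first step was called (3.63 ± 0.14, adjusted p = 2.4e-18) and its second, without overlap of the libraries, was under the minimum fold (0.78 ± 0.12, adjusted p = 3.5e-06). Tubb2b followed with 356, 352 and 342 CPM, then 2068, 2115 and 2239, then 3836, 4424 and 4280, and log2 fold changes of 2.61 ± 0.16 (adjusted p = 3.7e-14) and 0.97 ± 0.15 (adjusted p = 2.7e-06), the latter called without mNPC replicate 3 (1.00) or mCtx replicate 1 (1.03). Against mESC, mCtx had 21.3-fold more Tubb2a and 11.9-fold more Tubb2b.

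Tubb3, the class commonly stained to mark neurons, was lowest in the progenitors. Its cytoplasmic CPM were 142, 243 and 271 in mESC, 63.8, 42.3 and 44.5 in mNPC, and 2317, 2793 and 2823 in mCtx, with no overlap between cell types. It fell by 2.12 on the log2 scale from mESC to mNPC (SE 0.26, adjusted p = 4.0e-08), and mCtx stood 52.6-fold above mNPC (5.72 ± 0.30, adjusted p = 3.9e-15) and 12.1-fold above mESC (adjusted p = 2.9e-12). The neuron markers without tubulins, given above, did not have their lowest sum in mNPC.

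Tubb4b, an isotype of dividing and ciliated cells, had 801, 1242 and 1354 CPM in mESC cytoplasm, 392, 444 and 418 in mNPC and 189, 228 and 218 in mCtx. It fell by 1.44 in mNPC against mESC (SE 0.23, adjusted p = 2.5e-06), and its further difference in mCtx was just under the minimum (-0.98 ± 0.22, adjusted p = 4.3e-04), and past it by limma on the TPM (-1.02, adjusted p = 1.8e-04), with library totals (-1.10) and without mNPC replicate 1 (-1.02) or mCtx replicate 2 (-1.03). Tubb6, a beta-tubulin of many dividing cells (ENSMUSG00000001473, chr18:67390717-67402748, plus strand), had 105, 176 and 168 CPM in mESC, 86.6, 98.6 and 113 in mNPC, which overlapped (-0.59 ± 0.23), and 4.57, 5.79 and 4.15 in mCtx, a 20.5-fold drop from mNPC (-4.36 ± 0.28, adjusted p = 1.6e-13). Tubb5, the main beta-tubulin of many proliferating cells, had its lowest cytoplasmic levels in mNPC. Its CPM were 2621, 3225 and 3015 in mESC, 1487, 1603 and 1691 in mNPC, and 2742, 3370 and 3252 in mCtx. Its mCtx and mESC libraries overlapped (0.08 ± 0.16, adjusted p = 0.642), and the steps down to mNPC (-0.89 ± 0.16) and up from it (0.97 ± 0.16) were below the minimum fold. The step down was called with DESeq2 (-1.03), and the step up without mNPC replicate 3 (1.02) or mCtx replicate 1 (1.06).

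Counted over the 9 isotypes with a value in cytoplasm, 3 were called higher and 4 lower in mNPC against mESC, where 29.8% and 29.6% of all genes tested were called higher and lower. For mCtx against mNPC the members called were 2 higher and 2 lower (all genes 24.4% and 20.0%), and for mCtx against mESC 4 higher and 4 lower (35.7% and 32.2%), the exception being Tubb5. Tuba3a is left out of these counts, since it passed the filter only through the mESC libraries in which it was high. The mNPC against mESC and mCtx against mESC comparisons share the mESC libraries, and mCtx against mNPC shares libraries with both. Limma on log2(TPM + 1) called the same genes higher in each of the 3 comparisons and the same genes lower, with Tubb4b as an addition in mCtx against mNPC.

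**Figure D2:**
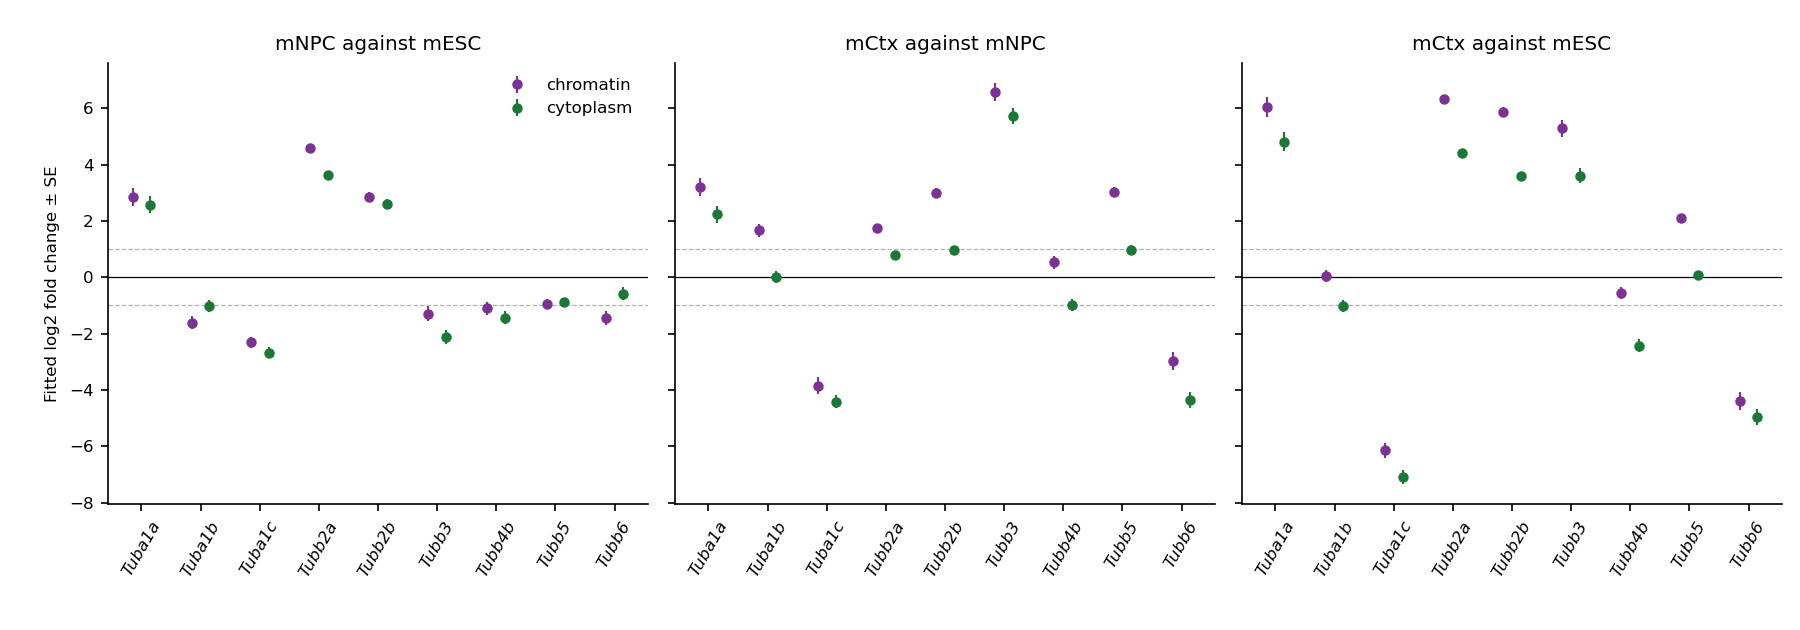
Fitted log2 fold change (y axis, with SE bars) of 9 tubulin isotypes between cell types, in chromatin (purple) and cytoplasm (green); Tuba3a is left out for want of counts, and dashed lines mark a size of 1. In the panels with mCtx the chromatin point of Tubb5 stands above its cytoplasm point, 3.03 beside 0.97 against mNPC and 2.10 beside 0.08 against mESC.

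These shifts changed the make-up of the alpha and the beta members, summed over the listed isotypes alone. Other tubulins are not in the sums, among them Tuba4a (282 TPM in mESC cytoplasm) and Tubb4a (162 TPM in mCtx cytoplasm). In mESC cytoplasm Tuba1b made up 79.8% ± 1.53 of the summed alpha TPM (SD, n = 3, for each share), Tuba1a 9.96% ± 2.53 and Tuba1c 8.89% ± 0.901. In mNPC cytoplasm Tuba1a made up 64.5% ± 1.60 and Tuba1b 33.4% ± 1.56, and in mCtx cytoplasm Tuba1a 89.0% ± 0.279 and Tuba1b 10.8% to 11.3%. Thus Tuba1b led in all 3 mESC cytoplasms and Tuba1a in all 6 of the other cell types. Given the shared windows, the split rests on how reads common to the trio were assigned, and as shares of CPM, in which each gene's length also counts, Tuba1a took 14.4%, 72.4% and 93.0%.

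Among beta isotypes in cytoplasm, Tubb5 (46.5% ± 3.82) and Tubb4b (34.2% ± 4.36) made up most of the mESC pool and Tubb2b 7.94% to 10.9%. In mNPC, Tubb2b led with 48.1% ± 1.45, before Tubb5 (23.4% ± 0.251), Tubb2a (13.6% ± 1.27) and Tubb4b (11.6% ± 0.551). In mCtx, Tubb2b held 41.4% ± 0.610, Tubb3 24.7% ± 0.507, Tubb5 20.6% ± 0.356, Tubb2a 10.6% ± 0.151, Tubb4b 2.60% ± 0.0377 and Tubb6 0.0727% ± 0.00908. Tubb3 had held 5.18% ± 0.883 in mESC and 1.06% ± 0.318 in mNPC. The shares are a description, since 3 against 3 libraries cannot give an exact two-sided permutation p under 0.10.

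**Figure D3:**
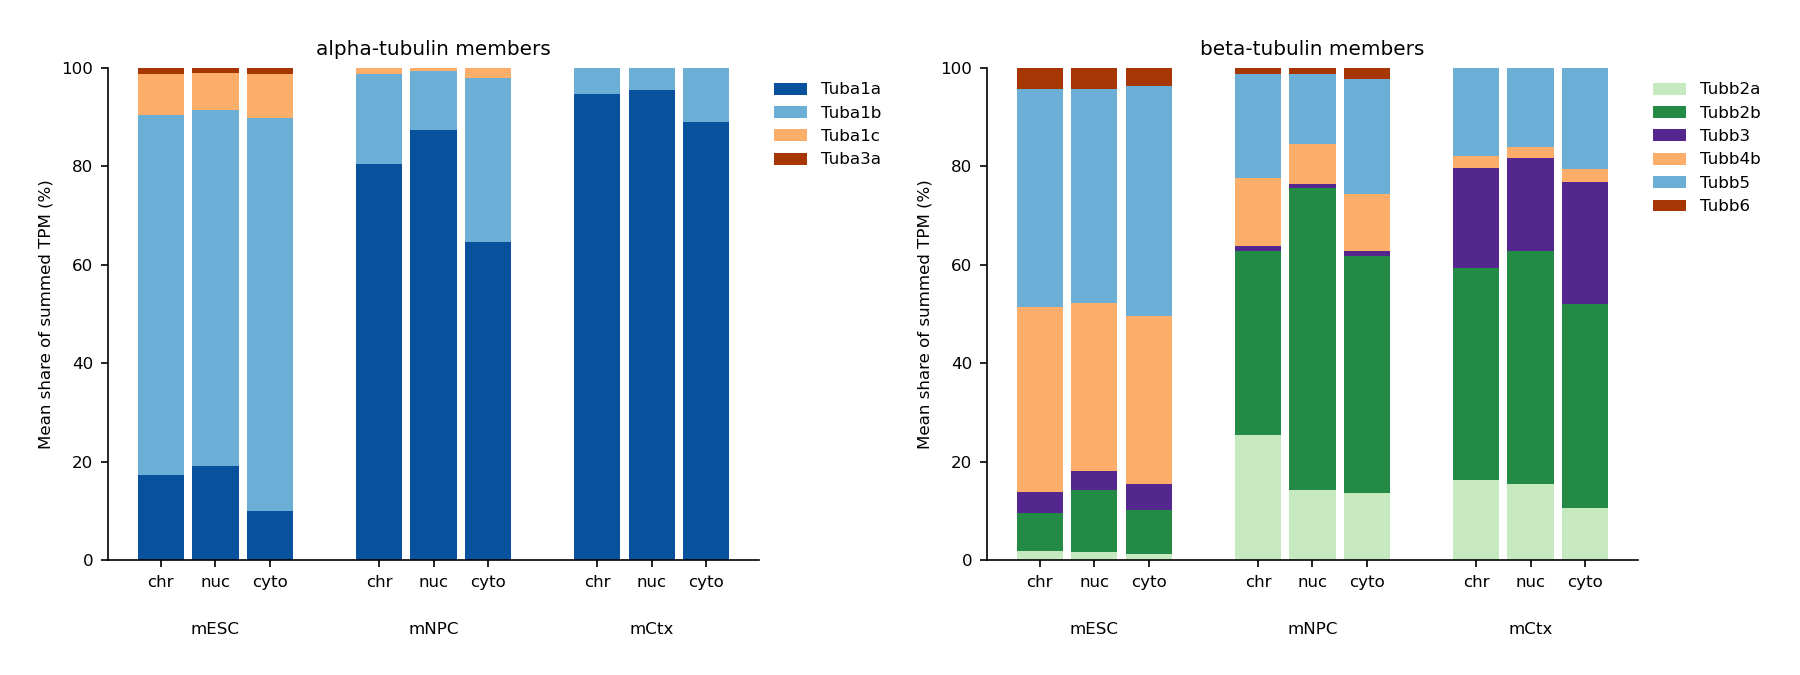
Mean share (percent, 3 libraries) of each isotype in the summed TPM of the alpha members (left) and beta members (right), for chromatin (chr), nucleoplasm (nuc) and cytoplasm (cyto) of each cell type. Tuba1b, 79.8% of the alpha pool in mESC cytoplasm, gives way to Tuba1a, which reaches 89.0% in mCtx cytoplasm and 95.4% in mCtx nucleoplasm.

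The share of Tuba1a was higher in nucleoplasm than in cytoplasm in every cell type: 19.2% against 9.96% in mESC, 87.3% against 64.5% in mNPC and 95.4% against 89.0% in mCtx, with no overlap between the 3 libraries of each. The summed pools were larger in mCtx cytoplasm than in either of the other cell types, and the alpha pool of mNPC lay within the mESC range. The alpha members summed to 3840 ± 596 TPM in mESC cytoplasm (SD, n = 3), 3729 ± 130 in mNPC and 12006 ± 694 in mCtx, and the beta members to 2798 ± 232, 3354 ± 50.8 and 7367 ± 567. In mCtx nucleoplasm the alpha members reached 19257 ± 231 TPM, 1.93% of all TPM, and the beta members 13447 ± 101, 1.34%.

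By TPM, the order of levels in mESC cytoplasm was Tuba1b (3059), Tubb5 (1297), Tubb4b (963), Tuba1a (392), Tuba1c (338), Tubb2b (249), Tubb3 (146), Tubb6 (108), Tuba3a (51.1) and Tubb2a (35.6), where the ranges of Tuba1a and Tuba1c and of Tubb3 and Tubb6 overlapped. In mNPC cytoplasm Tuba1a (2404) and Tubb2b (1614) came first and Tubb3 (35.5) came next to last, before Tuba3a, and Tubb2a (455) overlapped Tubb4b (390), and Tuba1c (76.7) overlapped Tubb6 (75.7). In mCtx cytoplasm the order was Tuba1a (10684), Tubb2b (3047), Tubb3 (1825), Tubb5 (1521), Tuba1b (1319), Tubb2a (778), Tubb4b (191), Tubb6 (5.37) and Tuba1c (3.96), and the ranges of Tubb6 and Tuba1c were the only neighbouring ones to overlap. Tubb2a thus stood last of 10 in mESC, with 35.6 ± 2.47 TPM, and passed Tubb4b in mCtx.

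As a share of each library, most isotypes were scarcer in chromatin than in cytoplasm. The amount of RNA in each fraction is not among the values analysed here, so these differences do not say where most of an isotype's mRNA lay. All 10 isotypes were lower in chromatin than in cytoplasm in mESC, with log2 fold changes from -3.60 to -2.59 and a median of -3.39, where 21.6% of all genes were called lower and the median of all genes was 0.37. In mNPC 9 were called lower, all but Tuba3a, whose counts were too few (median -3.12, all genes 21.3% lower and a median of 0.12). In mCtx 8 were called lower and the median was -1.48 (all genes 24.4% lower and a median of 0). No isotype was called higher in any of the 3 by edgeR, DESeq2 or limma.

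The values of Tubb5 show the change of scale. Its CPM were 218, 249 and 302 in mESC chromatin against 2621, 3225 and 3015 in mESC cytoplasm (-3.53 ± 0.17, adjusted p = 3.0e-15). In mNPC the chromatin libraries had 139, 134 and 130 against 1487, 1603 and 1691 (-3.57 ± 0.17, adjusted p = 1.3e-15). In mCtx they had 1015, 1154 and 1117 against 2742, 3370 and 3252 (-1.51 ± 0.16, adjusted p = 3.5e-09). Cytoplasmic Tubb5 was thus 11.5-fold and 11.9-fold above chromatin in mESC and mNPC and 2.85-fold above it in mCtx.

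Tubb2b behaved alike, with -3.51 ± 0.17 in mESC, -3.26 ± 0.16 in mNPC and -1.23 ± 0.15 in mCtx (adjusted p = 5.2e-08), where its chromatin libraries had 1709, 1893 and 1741 CPM. Tubb2a had 441, 449 and 444 CPM in mCtx chromatin, below every cytoplasm library but short of the minimum fold (-0.67 ± 0.12, adjusted p = 2.5e-05), and the summed Tubb2 pair was called lower there (-1.14 ± 0.14, adjusted p = 7.1e-08). Tuba1b showed the strongest difference in mNPC, with 38.6, 41.3 and 32.2 CPM in chromatin, 18.2-fold below cytoplasm (-4.19 ± 0.25, adjusted p = 6.1e-14). Its size is uncertain, as is the split of the Tuba1 trio, whose sum stood at -2.76 ± 0.24 there (adjusted p = 1.0e-10). By TPM, Tuba1b averaged 193 in mNPC chromatin and 1249 in mNPC cytoplasm.

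How far chromatin lay below cytoplasm in mCtx differed between the fit to the counts and the fit to the TPM. The median of all genes moved from 0 in the counts to 0.24 with library totals and to 0.36 in the log2(TPM + 1) values. The TPM fit changes the table, the scaling and the test at once, and their separate parts were not tested. By limma on those values only Tuba1b and Tuba1c were still called lower in mCtx chromatin, and Tuba1a (-0.53), Tubb2b (-0.26), Tubb3 (-0.61), Tubb4b (-0.42) and Tubb5 (-0.52) lost their calls. Tubb2a turned to 0.29 and Tubb6 to 0.56, neither called. Tubb6 was scarce there, at 0.673 to 1.18 CPM in chromatin. With library totals Tubb2b also lost its call in mCtx (-0.96). In mESC all 10 stayed called lower in the TPM, and in mNPC 8 of the 9 did, the exception being Tubb2a (-0.90).

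**Figure D4:**
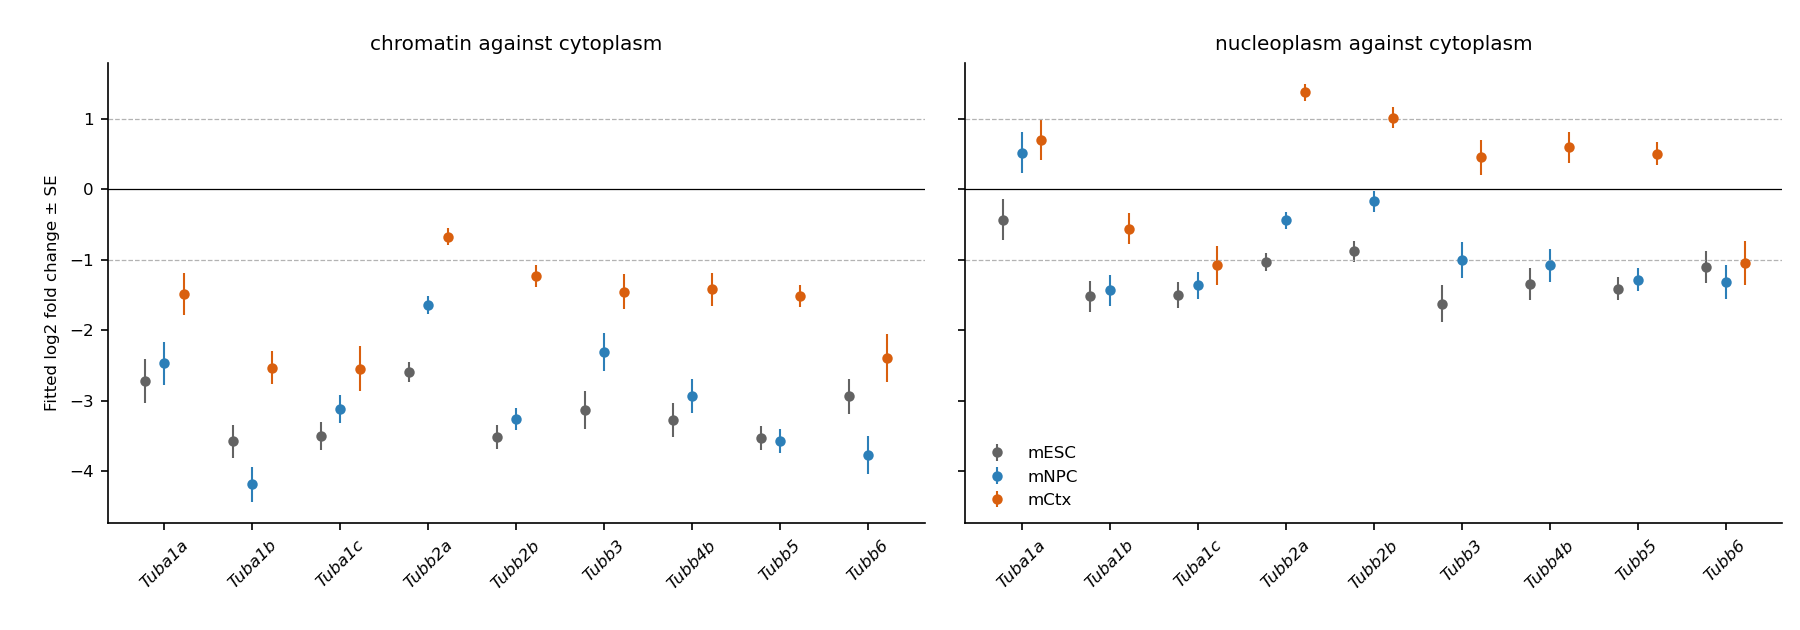
Fitted log2 fold change (y axis, with SE bars) of 9 tubulin isotypes in chromatin against cytoplasm (left) and nucleoplasm against cytoplasm (right), coloured by cell type; Tuba3a is left out and dashed lines mark a size of 1. The mCtx points stand highest for each isotype on the left, from -2.55 for Tuba1c to -0.67 for Tubb2a.

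Nucleoplasm stood below cytoplasm for most isotypes in mESC and above it for Tubb2a and Tubb2b in mCtx. In mESC 8 isotypes were lower in nucleoplasm (all genes 8.95% lower), with Tuba1a (-0.43 ± 0.29) and Tubb2b (-0.88 ± 0.15) not called. The summed Tuba1 trio was called there (-1.29 ± 0.23, adjusted p = 2.8e-05) and the summed Tubb2 pair was not (-0.90 ± 0.14). In mNPC 5 were lower (all genes 8.56%): Tuba1b, Tuba1c, Tubb4b, Tubb5 and Tubb6, with Tubb3 just short of the minimum (SE 0.26, adjusted p = 0.00219). The summed Tuba1 trio was not called in mNPC (0.19 ± 0.23, adjusted p = 0.538). At the margin, Tubb6 in mESC lost its call with library totals (-0.88), with only the libraries compared (-0.97), by limma on the TPM (-0.99) and without mESC nucleoplasm replicate 1 (-0.95). In mNPC, Tubb4b (-1.08 ± 0.23) lost its call with DESeq2 (-0.94), with only the libraries compared (-0.96), with a filter of 1 CPM in 3 libraries (-0.93) and without nucleoplasm replicate 1 (-0.95) or 3 (-0.85), and Tubb6 (-1.31 ± 0.24) without nucleoplasm replicate 3 (-0.97), while Tubb3 gained one with library totals (-1.28), by limma on the TPM (-1.26) and without nucleoplasm replicate 1 (-1.05) or cytoplasm replicate 2 (-1.11) or 3 (-1.08). In mCtx Tubb2a and Tubb2b were higher (all genes 11.7% higher) and Tuba1c and Tubb6 lower (all genes 9.57% lower).

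The Tubb2a values show the turn. In mESC its nucleoplasm had 16.7, 16.3 and 16.0 CPM against 33.0, 33.1 and 33.9 in cytoplasm (-1.03 ± 0.13, adjusted p = 1.7e-07). In mNPC 292, 352 and 267 CPM overlapped the cytoplasm's 348, 450 and 439 (-0.44 ± 0.12). In mCtx 1815, 1807 and 1925 CPM lay above all 3 cytoplasm libraries of 656, 737 and 732 (1.38 ± 0.12, adjusted p = 1.9e-09), 2.61-fold. The Tubb2a call in mESC was lost with library totals (-0.81) and by limma on the TPM (-0.90).

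Tubb2b had 8322, 8257 and 8856 CPM in mCtx nucleoplasm and 3836, 4424 and 4280 in cytoplasm (1.02 ± 0.15, adjusted p = 3.4e-06), a call at the minimum that was lost with library totals (0.94) and without mCtx nucleoplasm replicate 1 (1.00, just short) or 3 (0.96) or cytoplasm replicate 1 (0.96). The summed Tubb2 pair was called (1.08 ± 0.14, adjusted p = 6.4e-07). Tuba1a, with 14506, 14214 and 15854 CPM in mCtx nucleoplasm, Tubb3, with 3465, 3436 and 4042, and Tubb5, with 4341, 4208 and 4760, also lay above each of their cytoplasm libraries. None of these 3 reached the minimum fold: the log2 fold changes were 0.71 ± 0.29 (adjusted p = 0.0486), 0.46 ± 0.25 (adjusted p = 0.13) and 0.51 ± 0.16 (adjusted p = 0.00904). The same held for Tubb4b, with 314, 308 and 343 CPM in nucleoplasm and 189, 228 and 218 in cytoplasm (0.60 ± 0.22, adjusted p = 0.0292). Tuba1b, at 467, 453 and 476 CPM, lay below its cytoplasm in mCtx (-0.56 ± 0.22, adjusted p = 0.0372), on the other side from its neighbour Tuba1a. Their split is uncertain, and the summed Tuba1 trio was not called in mCtx (0.65 ± 0.23, adjusted p = 0.0205). The calls of Tuba1c (-1.08 ± 0.28) and Tubb6 (-1.04 ± 0.31) in mCtx rested on 66 and 113 nucleoplasm counts, and by limma on the TPM neither was called, with Tubb6 at 0.25. Without mCtx nucleoplasm replicate 3 both lost their calls (-0.98 and -0.89), and Tubb6 also without cytoplasm replicate 2 (-0.92).

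Chromatin was also below nucleoplasm for all 10 isotypes in mESC and for 9 in mNPC and 9 in mCtx (all genes 17.4%, 21.7% and 16.1% lower). The medians over the isotypes were -1.97, -2.29 and -2.02, and the extremes were Tubb2b in mNPC (-3.09 ± 0.16) and Tubb2a in mNPC (-1.20 ± 0.12). Both belong to the pair whose split is uncertain, and the summed pair stood at -2.63 ± 0.15 in mNPC (adjusted p = 5.4e-14). With library totals Tubb2a (-0.60) and Tubb3 (-0.71) lost their calls in mNPC and Tubb6 (-0.99) in mCtx. By limma on the TPM 7, 2 and 7 of these calls were kept: in mNPC they were Tuba1a and Tubb2b, and the others there ranged from -0.95 (Tuba1b) to -0.12 (Tubb2a), while the median of all genes moved from 0.053 to 0.66.

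Whether the fraction difference itself changed between cell types was tested as an interaction. Between mNPC and mESC, 0 of the 9 isotypes with a value were called in the chromatin-to-cytoplasm difference by edgeR (all genes 10.3% higher and 17.7% lower), 3 had an unadjusted p under 0.05, and DESeq2 and limma also called 0. Their values ran from -0.83 ± 0.34 (Tubb6, adjusted p = 0.0533) to 0.95 ± 0.18 (Tubb2a, adjusted p = 1.4e-04), the latter past the p threshold and under the minimum fold. Tubb2a was called when mESC chromatin replicate 1 (1.00), mNPC chromatin replicate 1 (1.02) or mNPC cytoplasm replicate 2 (1.02) or 3 (1.00) was left out, and Tubb3 without mNPC cytoplasm replicate 1 (1.05). Tubb6 was called lower with library totals (-1.04) and without mESC chromatin replicate 1 (-1.05) or mESC cytoplasm replicate 2 (-1.08) or 3 (-1.02).

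Between mCtx and mNPC, 5 isotypes had a higher chromatin-to-cytoplasm difference in mCtx (all genes 7.68% higher). They were Tubb5 (2.06 ± 0.22, adjusted p = 1.2e-07), Tubb2b (2.03 ± 0.21, adjusted p = 7.4e-08), Tuba1b (1.66 ± 0.31, adjusted p = 1.9e-04), Tubb4b (1.51 ± 0.32, adjusted p = 6.2e-04) and Tubb6 (1.39 ± 0.45, adjusted p = 0.019), the last lost without mCtx chromatin replicate 1 (1.17). Tuba1a stood at 0.99 ± 0.41 (adjusted p = 0.0702) and was called with the replicate block (1.01) and with DESeq2 (1.02). Tubb2a (0.97 ± 0.17) was called without mNPC chromatin replicate 3, mNPC cytoplasm replicate 1 or mCtx cytoplasm replicate 2 (1.07 in each), and Tubb3 (0.86 ± 0.36) without mNPC chromatin replicate 1 (1.05). The summed Tuba1 trio (1.23 ± 0.32, adjusted p = 0.00433) and the summed Tubb2 pair (1.71 ± 0.20, adjusted p = 3.5e-07) were called for mCtx minus mNPC. Between mCtx and mESC, 7 were higher (all genes 15.7% higher): Tubb2b (2.28 ± 0.21), Tubb5 (2.02 ± 0.22), Tubb2a (1.91 ± 0.18), Tubb4b (1.86 ± 0.32), Tubb3 (1.68 ± 0.35), Tuba1a (1.24 ± 0.42, adjusted p = 0.0137) and Tuba1b (1.05 ± 0.31, adjusted p = 0.00562). The last 2 were lost with library totals (0.98 and 0.80), without mESC chromatin replicate 1 (0.96 and 0.82) and without mESC cytoplasm replicate 2 (0.87 and 0.92), and Tuba1b also without mESC cytoplasm replicate 3 (0.94) or mCtx cytoplasm replicate 1 (1.00). Tuba1c (0.95 ± 0.41) was called without any 1 of mESC chromatin replicate 3 (1.13), mESC cytoplasm replicate 1 (1.00), mCtx chromatin replicate 3 (1.30) or mCtx cytoplasm replicate 2 (1.01), and the summed trio was called (1.86 ± 0.32, adjusted p = 2.2e-05). No isotype was lower in either comparison, where 11.4% and 24.9% of all genes were called lower.

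The TPM gave more of these calls than the counts. By limma on log2(TPM + 1), 8 of 9 isotypes with a value were called higher in mCtx against mNPC, all but Tuba1a, and 9 of 9 in mCtx against mESC. The nucleoplasm-to-cytoplasm difference was added after the levels had been seen. By edgeR it called 0 isotypes between mNPC and mESC (all genes 3.51% higher and 10.7% lower), 3 had an unadjusted p under 0.05, and DESeq2 called 1, Tuba1a (1.17, beside 0.95 ± 0.41 in edgeR). The summed Tuba1 trio was called there (1.47 ± 0.32, adjusted p = 0.00115). Tuba1a was also called without mESC nucleoplasm replicate 2 (1.22), mESC cytoplasm replicate 1 (1.45) or mNPC nucleoplasm replicate 3 (1.27), Tubb2b (0.71 ± 0.21) without mESC nucleoplasm replicate 1 (1.04) or mNPC nucleoplasm replicate 3 (1.10), and Tubb3 (0.62 ± 0.36) without mESC cytoplasm replicate 1 (1.04). Between mCtx and mNPC 5 were higher (all genes 6.31% higher): Tubb2a (1.83 ± 0.17), Tubb5 (1.79 ± 0.22), Tubb4b (1.68 ± 0.32), Tubb3 (1.46 ± 0.36) and Tubb2b (1.19 ± 0.21), and Tubb2b was lost without mNPC nucleoplasm replicate 3 (0.85) or mCtx nucleoplasm replicate 3 (0.99). Between mCtx and mESC 6 were higher (all genes 12.3% higher), the same 5 at 1.90 to 2.41 and Tuba1a at 1.14 ± 0.41 (adjusted p = 0.0251), which fell short with library totals (0.82) and without mESC nucleoplasm replicate 1 (0.88), mESC cytoplasm replicate 2 (0.85) or mCtx cytoplasm replicate 1 (1.08, adjusted p = 0.056). Tuba1b (0.96 ± 0.31) was called with DESeq2 (1.10), and in 5 of the fits that left out 1 library (1.02 to 1.17), and the summed trio was called (1.93 ± 0.32, adjusted p = 1.5e-05).

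For Tubb5, Tuba1b, Tubb2b and Tubb2a, chromatin differed between mCtx and mNPC past the thresholds and cytoplasm did not, and the interaction above, the test of that difference, was called for the first 3 and not for Tubb2a (0.97 ± 0.17). In chromatin Tubb2b rose by 3.00 ± 0.16 and Tubb2a by 1.75 ± 0.13, beside 0.97 and 0.78 in cytoplasm. Tubb5 had 218 to 302 CPM in mESC chromatin, 130 to 139 in mNPC and 1015 to 1154 in mCtx, a rise of 3.03 ± 0.17 against mNPC (adjusted p = 1.1e-14) and 2.10 ± 0.16 against mESC (adjusted p = 5.8e-12), beside the cytoplasmic 0.97 and 0.08. Tuba1b rose from 38.6, 41.3 and 32.2 CPM in mNPC chromatin to 113, 126 and 118 in mCtx (1.66 ± 0.23, adjusted p = 3.4e-07), beside 0.0091 in cytoplasm. Tubb3 had 12.7, 9.24 and 8.44 CPM in mNPC chromatin and 909, 1035 and 955 in mCtx, 95.2-fold more (6.57 ± 0.32, adjusted p = 7.4e-16). Tuba1a rose in chromatin at both steps, by 2.84 ± 0.31 and 3.21 ± 0.32.

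In chromatin of mNPC against mESC, again without Tuba3a, 3 isotypes were higher (Tuba1a, Tubb2a and Tubb2b) and 5 lower, with 25.3% and 31.9% of all genes called higher and lower. Limma on the TPM dropped Tubb4b (-0.71) and Tubb6 (-0.89) from the latter, Tubb4b fell short without mESC chromatin replicate 3 (-0.86), and Tubb5 (-0.93 ± 0.16) was added by DESeq2 (-1.08) and without mESC chromatin replicate 1 (-1.04). In mCtx against mNPC 6 were higher and 2 lower (all genes 23.5% and 21.4%), and in mCtx against mESC 5 were higher and 2 lower (29.3% and 32.3%). Tubb2a had the highest log2 fold change of the isotypes in mCtx against mESC chromatin, 6.32 ± 0.16 (adjusted p = 1.1e-21), from 5.99, 5.38 and 5.28 CPM to 441, 449 and 444. Tubb6 (-4.40 ± 0.32) and Tuba1c (-6.14 ± 0.28, 70.4-fold) were lower in the same comparison, from 55 and 29 counts in mCtx chromatin. The TPM of Tubb6 fell less, with means of 25.9 in mESC chromatin and 8.35 in mCtx chromatin, and limma on the TPM still called it lower. The Tubb6 fall in mCtx against mNPC chromatin (-2.97 ± 0.33) was -0.60 by limma on the TPM.

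The remaining tubulin genes were mostly scarce, and 7 of 10 listed were tested. Tubb4a, a beta-tubulin of neurons and oligodendrocytes, rose at each step in cytoplasm, from 4.69 ± 1.70 CPM in mESC (SD, n = 3) to 16.4 ± 2.99 in mNPC and 286 ± 26.3 in mCtx (mCtx against mESC, log2 fold change 5.91 ± 0.30). Tuba4a had 292 ± 114 CPM in mESC cytoplasm, 2.40 ± 0.478 in mNPC and 23.0 ± 1.03 in mCtx, a log2 fold change of -6.91 ± 0.37 and then of 3.24 ± 0.34. Of the gamma-tubulins, which nucleate microtubules, Tubg1 was lower in mCtx than in mNPC (-1.18 ± 0.22) and Tubg2 higher (2.52 ± 0.19), at 66.6 and 29.1 CPM in mCtx cytoplasm. The centriolar tubulins Tubd1 (-1.07 ± 0.14) and Tube1 (-2.08 ± 0.16) were lower in mCtx than in mESC, and Tuba8 stayed under 1 CPM in every group. Over the 7, 2 were higher and 5 lower in mCtx against mESC cytoplasm, where 35.7% and 32.2% of all genes were. Tuba8 is among the 5 lower, at 0.695 CPM in mESC and 0.0152 CPM in mCtx cytoplasm, so its call rests on very few counts.

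Of the genes that fold tubulin, the cofactors that assemble the dimer and the prefoldin subunits that hold the nascent chain, 13 were tested. In chromatin against cytoplasm 10 were lower in mESC, 8 in mNPC and 8 in mCtx, with medians of -1.50, -1.67 and -1.77 over the list, where 21.6%, 21.3% and 24.4% of all genes were lower and the medians of all genes were 0.37, 0.12 and 0. Pfdn5, a prefoldin subunit, was among them in all 3 (-2.34 ± 0.15, -2.55 ± 0.15 and -2.59 ± 0.15). Tbcd, a cofactor that binds beta-tubulin, went from -1.32 ± 0.14 in mESC through 0.022 ± 0.14 in mNPC to 1.36 ± 0.14 in mCtx. In mCtx against mESC cytoplasm 2 were higher and 1 lower, with a median of 0.11 (all genes 35.7% and 32.2%, median 0.059).

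Among 27 tested genes for enzymes that modify tubulin, of 29 listed, 14 were higher and 6 lower in mCtx against mESC cytoplasm, with a median of 1.74 (all genes 35.7% and 32.2%, median 0.059). Atat1, the acetyltransferase of alpha-tubulin, rose from 10.3 ± 1.91 CPM in mESC cytoplasm to 101 ± 12.4 in mNPC and 503 ± 34.9 in mCtx (SD, n = 3; mCtx against mESC 5.61 ± 0.18). Ttll4, a glutamylase, was lower in mCtx than in mESC (-1.82 ± 0.24). The 5 autoregulation genes (Ttc5, Scaper, Cnot1, Cnot10 and Cnot11) were 0 higher and 3 lower in mCtx against mESC cytoplasm, with a median of -1.13 (all genes 35.7% and 32.2%, median 0.059). Cnot1, the scaffold of the deadenylase, had 846 ± 45.1 CPM in mESC cytoplasm, 151 ± 32.4 in mNPC and 73.3 ± 10.5 in mCtx, a log2 fold change of -3.53 ± 0.16 from mESC to mCtx, and Cnot10 fell by 1.68 (SE 0.12).

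The genes compared numbered 12532, the member included, each with a symbol and a mean of at least 10 CPM in some group. Symbols of the Gm-number or Rik kind were left out. Over the 27 libraries, the other genes with the highest Pearson correlation of log2 CPM with Tuba1a were Ppp1r9b (0.980), Tubb2b (0.976) and Lrrc24 (0.973). For Tubb3 they were Rnd1 (0.981), Syn1 (0.976) and Uchl1 (0.974), for Tubb5 Zbtb12 (0.978), Slc25a1 (0.967) and Actg1 (0.967), and for Tubb6 Suclg2 (0.983), Gmnn (0.982) and Cavin1 (0.981). Within the set, Tuba1a and Tubb2a (0.96), Tuba1c and Tubb6 (0.97) and Tuba1b and Tubb4b (0.93) had like profiles. The points share cell types, fractions and libraries, so the coefficients are a description.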

How the data were processed

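Polyadenylated RNA of 27 libraries was measured. The deposited counts are whole numbers of reads per gene, and per the file headers each gene's length equals its genomic span, which would take in intronic reads. The deposited TPM are the authors' values per gene. Build mm10 and the tools kallisto 0.43.0, featureCounts and STAR are named, per the submitters' processing notes. No header or label states their settings, including those for shared or stranded reads.

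Counts were fitted with edgeR 4.0.16 (R 4.3.3; TMM, filterByExpr, 1 mean per group, quasi-likelihood F-test) in 18 contrasts, and 3 more were added after levels were seen. SE is the size of the log2 fold change over the root of F. A group with under 10 counts of a gene got no fitted fold; for Tuba3a such groups have a ratio of counts with its exact interval or, at 0 counts, a bound. The fit was checked on simulated data. Other settings were RLE scaling, library totals, other filters, DESeq2 1.42.0, limma 3.58.1 on log2(TPM + 1) and log2(TPM + 0.1), single contrasts, each library left out, merged isotypes and a replicate block. Same-numbered fractions deviated together in mESC (correlations 0.31 to 0.716) and not in every pair of mNPC (lowest -0.117). In mCtx all 9 same-numbered pairs were positive but weak (0.027 to 0.137), so pairing there is uncertain. Intervals and floors cover counting error only.

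All 10 members are named, with each tested gene of the list of other tubulins, the 2 tested genes of highest mean CPM in each other list (folding, modification, autoregulation), and the 3 genes most correlated with Tuba1a, Tubb3, Tubb5 and Tubb6. The members and lists were chosen with earlier results of these data known. Sequences are from GENCODE M21 transcripts (GRCm38). Alpha-tubulin sequences are not reported here.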

Additional observations from a re-analysis of the deposited data

Results flagged for a closer look

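Tests of the difference itself found 12 chromatin-to-cytoplasm differences of tubulin isotypes that changed between cell types. For mCtx minus mNPC these were Tuba1b (1.66), Tubb2b (2.03), Tubb4b (1.51), Tubb5 (2.06) and Tubb6 (1.39), where 7.68% of all genes were called higher. For mCtx minus mESC they were Tuba1a (1.24), Tuba1b (1.05), Tubb2a (1.91), Tubb2b (2.28), Tubb3 (1.68), Tubb4b (1.86) and Tubb5 (2.02), where 15.7% of all genes were. Tuba1a (0.98) and Tuba1b (0.80) lost their calls against mESC with library totals, and Tubb6 lost its call against mNPC without mCtx chromatin replicate 1 (1.17). The nucleoplasm-to-cytoplasm difference changed in 11 cases: for mCtx minus mNPC Tubb2a (1.83), Tubb2b (1.19), Tubb3 (1.46), Tubb4b (1.68) and Tubb5 (1.79), where 6.31% of all genes were called higher, and for mCtx minus mESC Tuba1a (1.14), Tubb2a (2.41), Tubb2b (1.90), Tubb3 (2.08), Tubb4b (1.94) and Tubb5 (1.92), where 12.3% were. Of these, Tuba1a lost its call with library totals (0.82), and Tubb2b against mNPC without nucleoplasm replicate 3 of mNPC (0.85) or mCtx (0.99). All are differences of log2 fold changes, and all those called are positive.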

How the results depend on the processing

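Under no minimum fold change, the genes called grew to 11521, 8966 and 8523 for nucleoplasm against cytoplasm in mESC, mNPC and mCtx (6652, 4553 and 3878 with it), to 10482 and 10526 for chromatin against nucleoplasm in mESC and mCtx (6083 and 6095), to 5830 for the chromatin-to-cytoplasm difference of mCtx minus mNPC (3472), and to 4360 and 5719 for the nucleoplasm-to-cytoplasm difference of mNPC minus mESC and mCtx minus mNPC (2591 and 3571). Limma on log2(TPM + 1) called 3767 and 2465 genes for nucleoplasm against cytoplasm in mESC and mCtx. For the nucleoplasm-to-cytoplasm difference of mNPC minus mESC, library totals gave 4615 genes and limma on log2(TPM + 0.1) 4273. The cause of these moves beyond the settings themselves was not tested. Library totals moved the median of all genes in chromatin against cytoplasm from 0.37, 0.12 and 0 to 0.88, 0.43 and 0.24, with 8100 higher and 2485 lower in mESC (6265 and 3933), 6124 and 3085 in mNPC (5018 and 3886) and 5653 and 3597 in mCtx (4780 and 4443). In nucleoplasm against cytoplasm they gave 5540 and 562 in mESC (5021 and 1631) and 2372 and 3248 in mNPC (2992 and 1561), and in chromatin against nucleoplasm 4390 and 2196, 6669 and 2446, and 4774 and 1719 (2919 and 3164, 4135 and 3960, 3169 and 2926).

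Single isotypes turned direction in the following cases. In mCtx, limma on log2(TPM + 1) and log2(TPM + 0.1) turned chromatin against cytoplasm for Tubb2a (0.29 and 0.29) and Tubb6 (0.56 and 0.64), nucleoplasm against cytoplasm for Tubb6 (0.25 and 0.29) and chromatin against nucleoplasm for Tubb6 (0.31 and 0.35). Merging the Tuba1 trio, by construction, gave Tuba1b and Tuba1c the sum's value: 0.19 and 0.65 for nucleoplasm against cytoplasm in mNPC and mCtx, 0.35 and 0.99 for mNPC against mESC in cytoplasm and chromatin, 2.22 for mCtx against mESC in cytoplasm, and for Tuba1c 1.87 and 3.09 for mCtx against mNPC and 4.08 for mCtx against mESC in chromatin. The near-zero Tuba1b values turned for mCtx against mNPC in cytoplasm (-0.11 with library totals, -0.023 with only the libraries compared) and for mCtx against mESC in chromatin (-0.05 with RLE and with DESeq2, -0.17 with library totals, -0.0092 with no filter, -0.039 with 1 CPM in 3 libraries, -0.008 with only the libraries compared, -0.13 with either TPM fit, -0.25 without the mESC libraries numbered 1). Tubb5, mCtx against mESC in cytoplasm, went to -0.04 with RLE and DESeq2 and to -0.0041 without the mESC libraries numbered 1, and Tubb6, nucleoplasm-to-cytoplasm difference of mCtx minus mESC, to -0.25 with library totals. None of the values that turned by leaving out a library was called before or after.

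Over the fits that left out 1 library, the near-zero values crossed 0: Tubb2b, nucleoplasm against cytoplasm in mNPC (-0.20 to 0.14); Tuba1b, mCtx against mNPC in cytoplasm (-0.079 to 0.076) and mCtx against mESC in chromatin (-0.19 to 0.29); Tubb5, mCtx against mESC in cytoplasm (-0.018 to 0.17). The nucleoplasm-to-cytoplasm difference of Tuba1c crossed 0 for mCtx minus mNPC (-0.014 to 0.37), and that of Tubb6 for mCtx minus mNPC (-0.11 to 0.35) and mCtx minus mESC (-0.13 to 0.27).

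The replicate block called 10324, 9031 and 9378 genes for chromatin against cytoplasm in mESC, mNPC and mCtx (10198, 8904 and 9223 without it). Among the isotypes the block changed the calls of Tuba1b in cytoplasm (-0.99 against mESC in mNPC and in mCtx) and of Tuba1a in the chromatin-to-cytoplasm difference of mCtx minus mNPC (1.01), and no other. Depth limits Tuba3a outside mESC, and Tuba1c and Tubb6 in mCtx.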
